A study of Mus musculus with 9 samples.

Results

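The insulin-like growth factor (IGF) genes are described here in C2C12 cells, a mouse myoblast line, that is, muscle precursor cells that divide in serum and fuse into myotubes when serum is withdrawn. The set holds 10 of the 53700 gene IDs in the count table, chosen by symbol: the ligands Igf1 and Igf2, the receptors Igf1r and Igf2r, and the binding proteins Igfbp2 to Igfbp7. Of these, 9 passed the filter on low counts, as did 18415 genes in all, and Igf2 did not. RNA was sequenced from 9 libraries, 3 per group, all plated for 12 h and then kept in OPTI-MEM, a reduced-serum medium, for 12 h. Control cells were collected at that point. Valine, a branched-chain amino acid, was then given to the Valine cells at 0.45 mM for a further 36 h. The Val+PA cells received valine at the same 0.45 mM over 24 h, and palmitic acid, which is a saturated fatty acid, at 75 µM over 12 h. Fetal bovine serum is recorded at 10% for every group. A group came from 1 plate with 6 wells, 3 of them drawn at random, so the p-values reflect variation between wells sharing a plate. Time in culture, plate and treatment differed together between Control and both other groups and cannot be told apart, and no well kept for 36 h without valine was measured here.

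IGF1 and IGF2 are secreted peptides that bind the tyrosine kinase receptor IGF1R and drive growth and differentiation of muscle cells through the PI3K and AKT kinases. IGF2R, the mannose 6-phosphate receptor, takes IGF2 into lysosomes and sends no growth signal of this kind. The IGF-binding proteins hold IGFs outside the cell, and can restrain or deliver them depending on their cleavage and their binding to matrix.

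Library totals ran from 26750226 to 35976589 counts. Levels are given as CPM, counts scaled to a fixed library total with scaling factors set by TMM (trimmed mean of M values), on which 1 count was worth 0.0271 to 0.0403 CPM. Control 3 and Val+PA 2 differed from the rest of their groups, for example in the mitochondrial transcript mt-Co1, at 1229 and 865 CPM against 2935 to 5303 CPM in the other 7. In Control 3 the low mt-Co1 did not come with an equally low sum of mitochondrial transcripts. Summed over 13 of them, Control ran from 6213 to 7443 CPM, Valine from 6513 to 7397 CPM and Val+PA from 4612 to 6986 CPM. Control 3 thus summed to at least 6213 CPM, of which mt-Co1 was 1229, while in Control 1 mt-Co1 was 3810 of at most 7443. In Val+PA 2 the sum was 4612 CPM, the lowest of the 9 libraries, of which mt-Co1 was 865. The 6 myoblast markers summed to 1321 to 1566 CPM in Control, 2131 to 2253 CPM in Valine and 2013 to 3389 CPM in Val+PA. Des and Cdh15 were the most abundant, and most of each sum was Des. In the same order of groups, Des had means of 1233, 1947 and 2400 CPM. Cdh15 went the other way, with means of 176, 162 and 149 CPM and overlapping libraries. Pax7 changed little, at means of 1.28, 1.32 and 1.54 CPM. Myf5 had means of 34.2, 69.2 and 45.9 CPM, and Myog had means of 0.487, 6.99 and 5.29 CPM. A list of 7 fibroblast or fibro-adipogenic markers summed to 413 to 535 CPM in Control, 1797 to 1909 CPM in Valine and 1723 to 1944 CPM in Val+PA. Ly6a was the most abundant of them, at a mean of 386 CPM in Control and 1399 CPM in Valine, and Dcn had means of 9.66 and 255 CPM. None of these 7 was at 0 throughout, and Thy1 stayed under 1 CPM. The endothelial list of 4 genes summed to 0.524 to 1.09 CPM in Control, 2.45 to 3.05 CPM in Valine and 2.36 to 3.49 CPM in Val+PA. The immune list of 4 summed to 1.81 to 2.98 CPM in Control, 4.84 to 5.96 CPM in Valine and 5.67 to 7.06 CPM in Val+PA. Both sums were thus low but higher in the treated groups without overlap, though not every gene on these lists was higher. In the immune list Cd68 went from a mean of 1.77 CPM in Control to 5.11 in Valine and 5.75 in Val+PA. Csf1r went from 0.770 to 0.218 and 0.229 CPM. In the endothelial list Kdr went from 0.377 to 1.35 and 2.18 CPM, and Pecam1 had means of 0.058, 0.183 and 0.009 CPM. The part of such markers in the differences below was not tested, and in bulk RNA fewer cells of a type and less RNA per cell cannot be told apart. Of the 5 adipocyte markers, Adipoq and Lep had no count, and the list summed to at most 0.245 CPM in any library. The hepatocyte list, which includes the binding protein gene Igfbp1, summed to 1.55 to 2.74 CPM over all libraries.

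Promoter windows of 4 members are shown because the values below turn on them: Igf1 and Igfbp5 had the largest rises, Igf2r rose among the receptors, and Igfbp6 was the member that fell in Valine. All 10 members matched RefSeq windows of GRCm38.p6, with 14 annotated starts between them. The only window of Igf1 lies inside its gene as placed in the GENCODE M21 annotation, where it begins at base 87858265. The bases before that start are not shown. Each sequence is the 250 bases before a start, 5′ to 3′ on the strand of the gene, and capitals mark E-boxes, the letters CANNTG, which read the same way on both strands and are the core of the sites that myogenic and other basic helix-loop-helix factors bind.
Igf1, chr10:87860861-87861110, plus strand: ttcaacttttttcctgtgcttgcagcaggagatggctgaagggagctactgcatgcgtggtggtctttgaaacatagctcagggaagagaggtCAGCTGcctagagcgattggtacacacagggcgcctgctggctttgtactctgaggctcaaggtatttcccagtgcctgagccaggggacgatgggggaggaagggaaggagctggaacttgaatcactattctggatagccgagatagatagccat
Igfbp5, chr1:72874866-72875115, minus strand: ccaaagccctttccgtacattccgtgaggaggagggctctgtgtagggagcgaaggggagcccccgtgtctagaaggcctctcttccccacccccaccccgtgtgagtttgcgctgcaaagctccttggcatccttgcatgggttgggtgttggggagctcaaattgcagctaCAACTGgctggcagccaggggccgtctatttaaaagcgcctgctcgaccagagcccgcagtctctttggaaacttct
Igf2r, chr17:12769707-12769956, minus strand: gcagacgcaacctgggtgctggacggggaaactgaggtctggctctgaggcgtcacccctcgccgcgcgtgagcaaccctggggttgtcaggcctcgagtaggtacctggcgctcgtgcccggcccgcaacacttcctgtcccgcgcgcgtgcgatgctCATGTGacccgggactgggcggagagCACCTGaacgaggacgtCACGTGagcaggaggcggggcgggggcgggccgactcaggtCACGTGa
Igfbp6, chr15:102143936-102144185, plus strand: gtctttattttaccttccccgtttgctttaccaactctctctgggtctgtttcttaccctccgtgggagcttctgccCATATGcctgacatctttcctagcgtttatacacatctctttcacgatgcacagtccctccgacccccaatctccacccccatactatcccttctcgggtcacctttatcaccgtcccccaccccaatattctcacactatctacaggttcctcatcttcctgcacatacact
The window of Igf1 held 1 such match (CAGCTG), that of Igfbp5 held 1 (CAACTG), that of Igf2r held 4 and that of Igfbp6 held 1 (CATATG). Over all 32851 windows of this length, 66.2% held at least 1 match and 3.84% held 4 or more. Of the 14 windows of the members, 9 held at least 1. The GC content was 52.8% for Igf1, 58.8% for Igfbp5, 69.2% for Igf2r and 49.6% for Igfbp6, against a median of 52.4% over all windows. Among the other members, the windows of Igf1r and Igfbp7 held no match, those of Igfbp3 and Igfbp4 held 1 each, and both windows of Igfbp2 held 1. Igf2 had 2 matches in its most upstream window and none in the other 3. A match describes these letters only.

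The first question was which IGF genes differed after 36 h with valine. Both Igf1, by 15.8-fold, and Igfbp5, by 5.68-fold, were higher in Valine than in Control, and so were Igf2r, Igfbp4 and Igfbp2, by 2.46-fold, 2.29-fold and 1.59-fold. Igfbp6 was 1.33-fold lower. The signalling receptor Igf1r and the binding proteins Igfbp3 and Igfbp7 did not pass the test. Of the 9 tested members 6 were called, where 41.9% of all tested genes were: 5 rose, where 20.8% of genes did, and 1 fell, where 21.1% did. A call is a Benjamini-Hochberg adjusted p under 0.05, over all genes, in the quasi-likelihood test of edgeR. For 7 of the 9, all values in one group lay clear of those in the other, which held for 59% of genes. The median log2 fold change of the 9 was 0.67, beside -0.0049 over all genes tested.

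**Figure D1:**
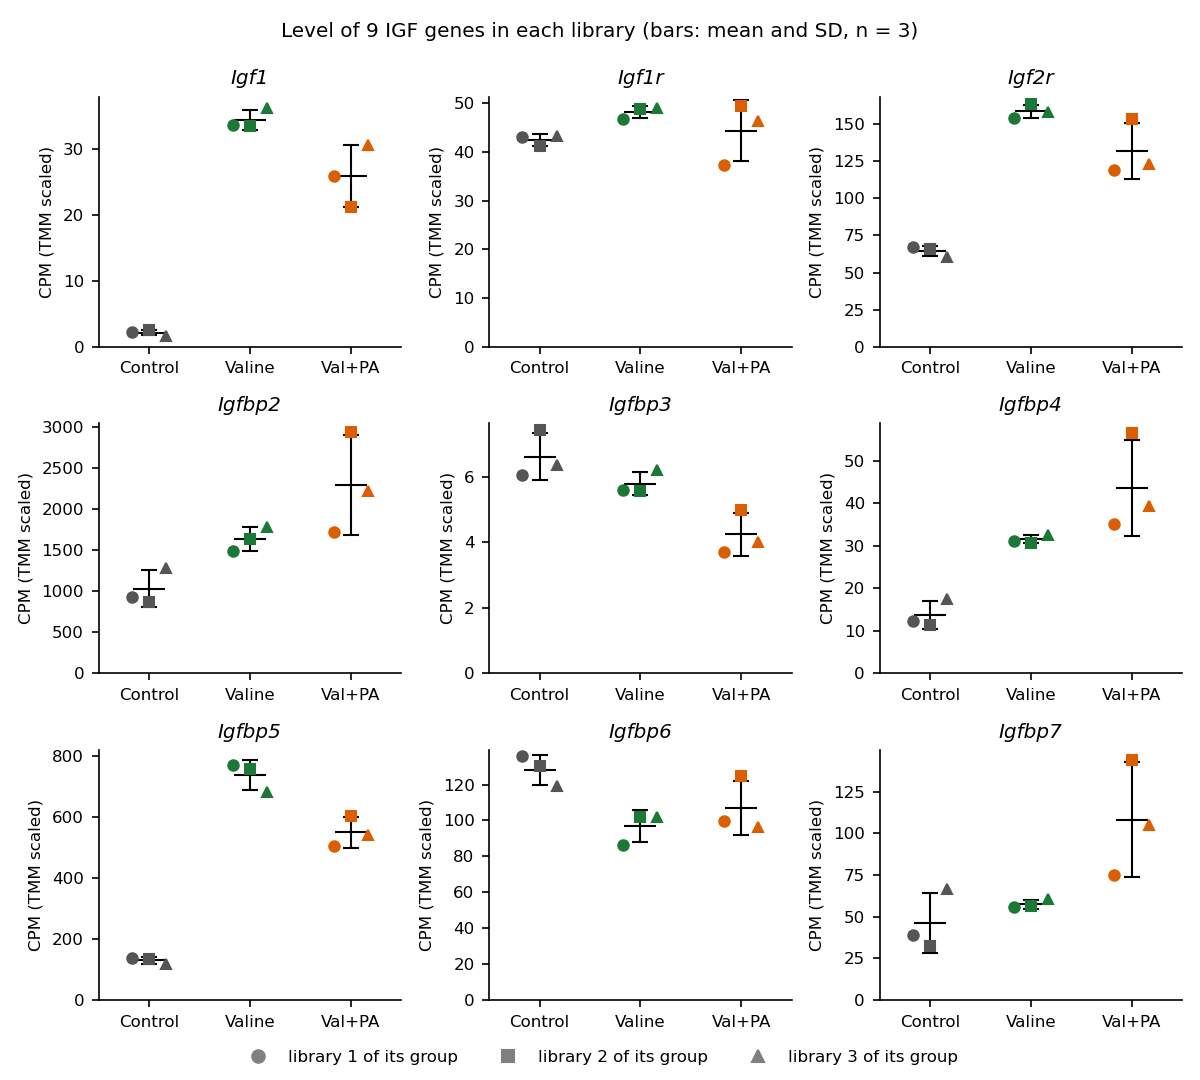
Level of 9 IGF genes in each of the 9 libraries, as TMM-scaled CPM on linear axes from 0, with 3 libraries per group drawn as points and black lines for the mean and SD. Igf1 sits near the axis in Control, at 1.69 to 2.49 CPM, and at 33.4 to 36.2 CPM in Valine, while Igf1r stays between 37.3 and 49.4 CPM in all libraries.

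Among the ligands, Igf1 (ENSMUSG00000020053, GRCm38 chromosome 10, 87858265 to 87937042, plus strand) had 71, 82 and 42 counts in Control and 1238, 1149 and 1234 counts in Valine. In Val+PA it had 953, 661 and 990 counts. On the CPM scale this was 2.15 ± 0.41 in Control against 34.4 ± 1.5 in Valine and 25.9 ± 4.7 in Val+PA (SD, n = 3). Every library of both treated groups stood above every Control library. The log2 fold change was 3.98 in Valine against Control (SE 0.18, edgeR adjusted p = 6.32e-08), which ranked 13 by p among all genes tested. Its largest neighbour on the other strand, Igf1os, shared no exon base with it and had 17 counts in all.

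Igf2 (ENSMUSG00000048583, chromosome 7, 142650766 to 142666816, minus strand), the ligand that C2C12 cells are known to secrete as they differentiate, had 1 count in Valine 2 and none in the other 8 libraries. A count of 0 allows up to 3 counts, which is 0.0814 to 0.121 CPM depending on the library. This limit holds for reads assigned to Igf2 alone. In the GENCODE M21 annotation, 3596 of its 5723 exon bases (62.8%) and 546 of its 678 coding bases (80.5%) also belong to Gm49394, a gene on the same strand that starts upstream, and Gm49394 had no count in any library. The remaining 2127 exon bases include a 1126-base exon of which no base is shared with Gm49394. How reads on both genes were assigned is not given in the sources used here, and its part in the zero was not tested. Across the annotation, 223 of 337 protein-coding genes with at least 60% of exon bases shared in this way had under 10 counts in all libraries together (66.2%), against 6017 of 20821 (28.9%) with none shared. Why genes with shared exons had few counts was not tested. With the assignment of reads unknown, the counts are taken as a limit on reads assigned to Igf2 alone and not as a level of Igf2 RNA.

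**Figure D2:**
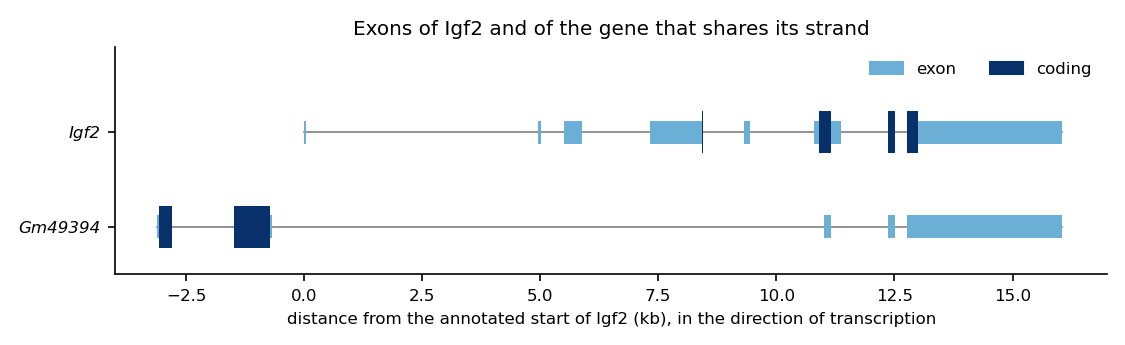
Exons (light) and coding parts (dark) of Igf2 and of Gm49394, drawn as distance in kb from the annotated start of Igf2 along the direction of transcription. The last 2 exons of Igf2 and part of the one before them lie under exons of Gm49394, which together cover 62.8% of the exon bases of Igf2.

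The long non-coding RNA H19, the imprinted neighbour of Igf2 on chromosome 7, had 2773, 2722 and 1629 counts in Control and 16576, 16934 and 16563 in Valine. It had 12217, 14569 and 9000 counts in Val+PA. Its log2 fold change was 2.59 in Valine against Control (SE 0.18, edgeR adjusted p = 8.28e-07). Ins2, which lies upstream of Igf2, fell outside the naming rule as its mean was under 1 CPM. It had 2 counts over the Control libraries, all in Control 3, and 11 to 29 counts in each treated library.

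Of the receptors, Igf1r (ENSMUSG00000005533, chromosome 7, 67952827 to 68233668, plus strand) measured 43.0, 41.1 and 43.3 CPM in Control and 46.7, 48.7 and 48.9 CPM in Valine. The values of these groups did not touch, yet the log2 fold change, which was 0.18, did not pass (SE 0.11, edgeR adjusted p = 0.228). In Val+PA it measured 37.3, 49.4 and 46.2 CPM, a range that takes in the Control values. Igf2r (ENSMUSG00000023830, chromosome 17, 12682406 to 12769664, minus strand) measured 67.3, 65.7 and 60.5 CPM in Control and 154, 163 and 158 CPM in Valine. In Val+PA it measured 119, 154 and 123 CPM. Both treated groups lay wholly above Control, with a log2 fold change of 1.30 in Valine (SE 0.11, edgeR adjusted p = 3.99e-06). The antisense transcript Airn, which overlaps the gene of Igf2r but none of its exon bases, had 70, 71 and 26 counts in Control and 105 to 207 counts in the treated libraries.

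Among the binding proteins that rose in Valine, Igfbp5 (ENSMUSG00000026185, chromosome 1, 72857932 to 72874884, minus strand), which binds to matrix and is a known product of differentiating myoblasts, measured 138, 134 and 118 CPM in Control. It measured 772, 759 and 682 CPM in Valine and 504, 605 and 542 CPM in Val+PA. The 3 groups did not overlap each other. The log2 fold change was 2.51 in Valine against Control (SE 0.11, edgeR adjusted p = 6.15e-08). Igfbp4 (ENSMUSG00000017493, chromosome 11, 99041244 to 99054392, plus strand), which is cleaved by the protease PAPP-A, measured 12.3, 11.4 and 17.6 CPM in Control. It measured 31.2, 30.7 and 32.5 CPM in Valine and 35.2, 56.4 and 39.3 CPM in Val+PA, again with no overlap between groups. Its log2 fold change was 1.20 in Valine (SE 0.19, edgeR adjusted p = 0.000414).

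Igfbp2 (ENSMUSG00000039323, chromosome 1, 72824503 to 72852474, plus strand), which carries an integrin-binding RGD motif, had the most counts of any member. It measured 933, 873 and 1291 CPM in Control, 1498, 1633 and 1784 CPM in Valine and 1722, 2942 and 2227 CPM in Val+PA. Valine lay above Control without overlap, by a log2 fold change of 0.67 (SE 0.19, edgeR adjusted p = 0.0138). That call was lost without Control 1 (log2 fold change 0.60, edgeR adjusted p = 0.0538), Control 2 (0.56, edgeR adjusted p = 0.0544) or Valine 3 (0.61, edgeR adjusted p = 0.0531).

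Igfbp6 (ENSMUSG00000023046, chromosome 15, 102144362 to 102149511, plus strand), which prefers IGF2 to IGF1, was the member that fell. It measured 136, 130 and 119 CPM in Control and 86.4, 102 and 102 CPM in Valine, a log2 fold change of -0.41 (SE 0.12, edgeR adjusted p = 0.0174). The call was lost without Control 1 (-0.37, edgeR adjusted p = 0.0617) or Valine 1 (-0.32, edgeR adjusted p = 0.0973). Igfbp3 (ENSMUSG00000020427, chromosome 11, 7206086 to 7213923, minus strand), the main carrier of IGFs in blood, was sparse here, at 6.06, 7.44 and 6.36 CPM in Control and 5.60, 5.58 and 6.21 CPM in Valine. Those values overlapped (log2 fold change -0.19, SE 0.16). Igfbp7 (ENSMUSG00000036256, chromosome 5, 77349240 to 77408041, minus strand), which binds IGFs weakly, measured 39.0, 32.6 and 66.7 CPM in Control and 55.7, 56.2 and 60.5 CPM in Valine. Control 3 alone exceeded the Valine libraries. Without Control 3 the log2 fold change of Igfbp7 went from 0.32 to 0.69 and passed (SE 0.22, edgeR adjusted p = 0.0274). Its last exon shares 85 bases with Polr2b on the other strand, 7.03% of its exon bases.

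**Figure D3:**
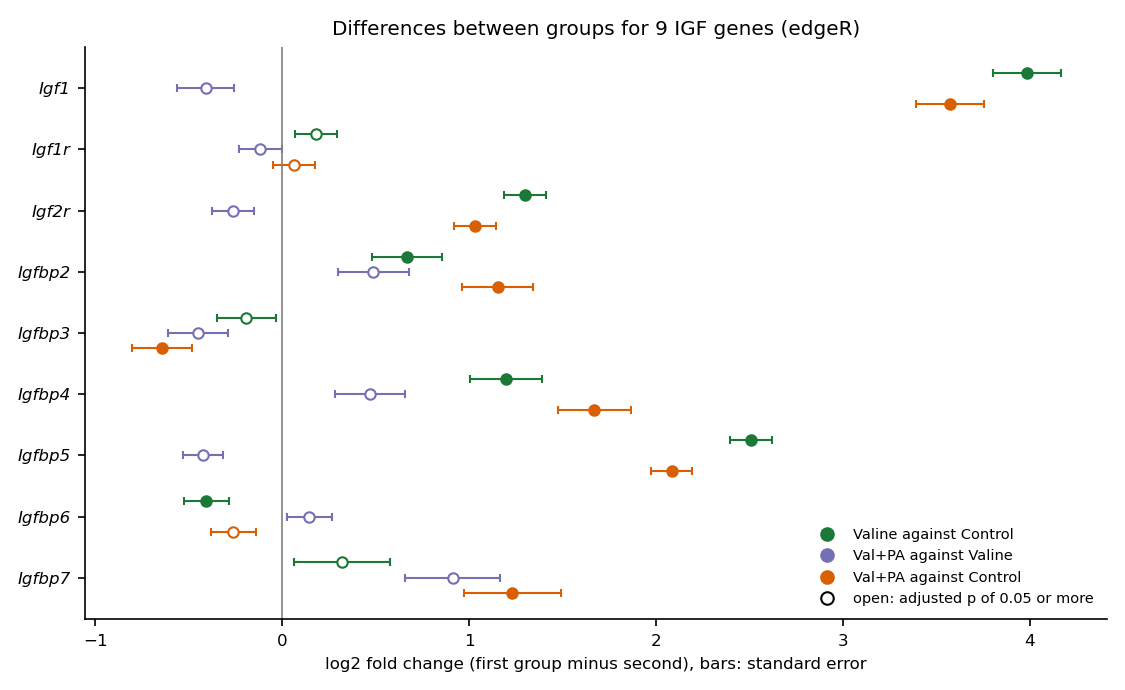
Log2 fold change of 9 IGF genes in the 3 comparisons with bars of 1 standard error, filled where the edgeR adjusted p was under 0.05. Igf1 lies farthest to the right, at 3.98 in Valine against Control and 3.57 in Val+PA against Control, and all 9 points of Val+PA against Valine are open.

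The second comparison set Val+PA, given valine for 24 h plus palmitic acid for 12 h, against Valine, given valine for 36 h. These groups also came from different plates, so palmitic acid, hours of valine and plate cannot be told apart. No member passed the test, and no gene did (0% of 18415). At an unadjusted p under 0.05 stood 7 of the 9 members, where 13.2% of all genes did. DESeq2 called 2 members, Igfbp5 and Igfbp7, and 1.15% of all genes, and limma-voom called none. Val+PA and Valine libraries were fully separate for 6 members, where this held for 24.6% of genes. The largest of these differences was that of Igfbp7, at 75.2, 144 and 105 CPM in Val+PA, above all 3 Valine libraries (log2 fold change 0.91, SE 0.26, edgeR adjusted p = 0.263). Igfbp5 had a log2 fold change of -0.42 (SE 0.11, edgeR adjusted p = 0.218), Igf1 one of -0.41 (SE 0.15) and Igf2r one of -0.26 (SE 0.11). Igfbp3, at 3.72, 5.00 and 4.02 CPM in Val+PA, had one of -0.45 (SE 0.16), also without overlap. Igfbp4 and Igfbp2 had positive ones of 0.47 (SE 0.19) and 0.49 (SE 0.19), and Igfbp2 overlapped in the 2 groups.

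Leaving out Control 3 and Val+PA 2 brought 4 members past the threshold in this comparison, where 3.21% of the 18799 genes then tested passed. Igfbp5 then had a log2 fold change of -0.50 (SE 0.06, edgeR adjusted p = 0.00116), Igf2r -0.39 (SE 0.06, edgeR adjusted p = 0.00288) and Igfbp3 -0.59 (SE 0.15, edgeR adjusted p = 0.038). Igfbp7 had one of 0.65 (SE 0.11, edgeR adjusted p = 0.00466). The other 5 did not pass. Of these, Igfbp2 went from 0.49 to 0.27, Igfbp4 from 0.47 to 0.24, Igfbp6 from 0.14 to 0.019 and Igf1 from -0.41 to -0.29, all nearer to 0. Igf1r went from -0.12 to -0.21. Val+PA 2 was the highest of its group for 8 of the 9 members and the lowest for Igf1. Control 3 was likewise the highest of its group for Igfbp2, Igfbp4 and Igfbp7, at 1.43, 1.48 and 1.86 times the mean of the other 2 Controls, and Val+PA 2 stood at 1.49, 1.51 and 1.60 times the mean of the other 2 libraries. These 3 genes therefore had wide spreads in the same 2 libraries in which mt-Co1 was low, and the part of those libraries' RNA state in these values was not tested.

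The third comparison set Val+PA against Control, and it shares the Control libraries with the first and the Val+PA libraries with the second. Of the 9 tested members 7 were called, where 39.2% of all genes were. Of these 6 rose, where 20.4% of all genes did, and 1 fell, where 18.8% did (edgeR adjusted p under 0.05). In log2 units Igf1 rose by 3.57 (SE 0.18, edgeR adjusted p = 1e-07), Igfbp5 by 2.08 (SE 0.11), Igfbp4 by 1.67 (SE 0.20) and Igf2r by 1.03 (SE 0.11). Igfbp2 rose by 1.15 (SE 0.19) and Igfbp7 by 1.23 (SE 0.26, edgeR adjusted p = 0.00256). Igfbp3 had a log2 fold change of -0.64 (SE 0.16, edgeR adjusted p = 0.00695) and lay below Control in all 3 libraries. Igfbp6 measured 99.7, 124 and 96.6 CPM against 119 to 136 CPM in Control and did not pass (log2 fold change -0.26, SE 0.12, edgeR adjusted p = 0.105). Without Val+PA 2 it did, at -0.39 (SE 0.10, edgeR adjusted p = 0.00878). Igf1r had a log2 fold change of 0.06 (SE 0.11). The groups did not overlap for 7 members, where this held for 45.5% of genes.

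Levels can be set side by side between genes only per length, here as CPM per kilobase of exon sequence. On this scale Igfbp2 led in every group, with a mean of 559 in Control against 887 in Valine and 1244 in Val+PA. Igfbp6 came next in Control at 115, followed by Igfbp7 at 38.1, Igfbp5 at 21.6, Igf2r at 6.93, Igfbp4 at 3.11, Igf1r at 2.53, Igfbp3 at 2.12 and Igf1 at 0.217. No 2 neighbours in that order overlapped in their Control libraries. In Valine Igfbp5 stood second at 123 CPM per kilobase, ahead of Igfbp6 at 87.0, and Igf1 at 3.47 stood above Igf1r at 2.86, in each case with no overlap. In Val+PA Igfbp6 at 96.2, Igfbp5 at 91.6 and Igfbp7 at 89.4 overlapped and cannot be ordered, nor can Igf1r at 2.64 and Igf1 at 2.61. Igf2 is not placed, for the reason given above.

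Summed over Igfbp2 to Igfbp7, the level per kilobase was 739 ± 130 in Control against 1154 ± 79 in Valine and 1532 ± 383 in Val+PA (SD, n = 3). Igfbp2 made up 75.2% ± 3.1 of that sum in Control against 76.8% ± 1.5 in Valine and 80.9% ± 1.5 in Val+PA (SD, n = 3). The share of Igfbp5 was 3.00% ± 0.69 in Control against 10.7% ± 1.4 in Valine and 6.14% ± 0.96 in Val+PA, and these ranges did not overlap. The share of Igfbp6 was 16.0% ± 3.4 in Control against 7.54% ± 0.34 in Valine and 6.42% ± 1.0 in Val+PA. Igfbp3 made up 0.293%, 0.161% and 0.090% of the sum. The deposited normalized signal gave the same order of members in each group. It too is scaled by gene length and library, so it is no separate check on that order.

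**Figure D4:**
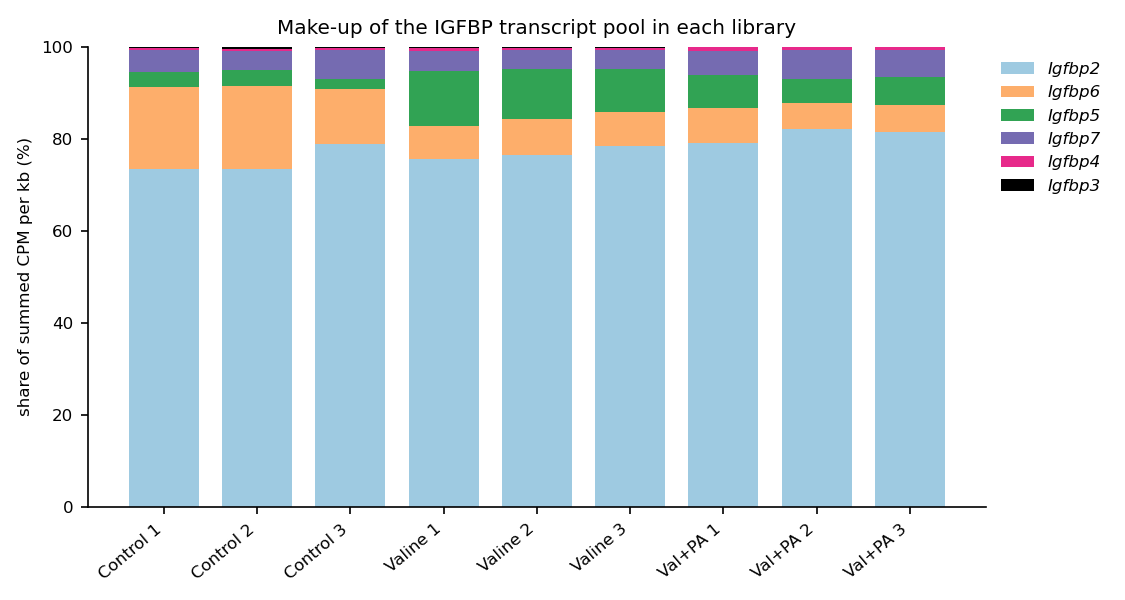
Share of each binding protein gene in the summed level of Igfbp2 to Igfbp7 in each library, in percent of CPM per kilobase of exon. The bar of Igfbp2 spans 73.4% to 82.1%, and the second largest part is Igfbp6 in the Control libraries and Igfbp5 in the Valine libraries.

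The genes whose pattern was most like that of a member were sought by Pearson correlation of log2(CPM + 0.5) over the 9 libraries, among 10025 genes with a mean of at least 5 CPM. For Igfbp5 they were Ccdc141 (r = 0.999), the myosin light chain gene Myl1 (r = 0.996) and Abca8b (r = 0.996). For Igf1r they were Smad3 (r = 0.956), Snn (r = 0.901) and the myogenic factor Myod1 (r = 0.897). Igf1, added to this search after its values were seen, was closest to Lifr (r = 0.999), the receptor of leukemia inhibitory factor, Colec10 (r = 0.999) and Ranbp3l (r = 0.998). The 9 libraries fall into 3 groups, and for Igf1 and Igfbp5 they hold the large step between Control and the treated groups. All r values are descriptions and carry no p. No such search was made for Igf2.

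Proteases, their inhibitors and carriers act on IGF-binding proteins after secretion. Of 10 such genes, 8 were tested, and in Valine against Control 6 rose, where 20.8% of all genes did, and 1 fell, where 21.1% did. Their median log2 fold change was 0.53, beside -0.0049 over all genes. Stc1, a stanniocalcin that inhibits PAPP-A, rose by 2.48 (SE 0.29) to 3.35 ± 0.69 CPM from 0.597 CPM (SD, n = 3). Adam12, a metalloprotease that can cleave IGFBPs, went from 18.6 to 4.70 CPM, a log2 fold change of -1.99 (SE 0.18). In Val+PA against Control 5 rose and 1 fell, where 20.4% and 18.8% of all genes did, and Pappa2, the relative of PAPP-A, rose by 2.13 (SE 0.32) to 1.97 CPM. Against Valine none passed, and Mmp2, a gelatinase, had the smallest p in the list, with a log2 fold change of 0.38 (SE 0.12, edgeR adjusted p = 0.314). Igfals, which encodes the acid-labile subunit of the circulating IGF complex, measured 0.505 CPM in Control and 0.527 CPM in Valine and did not pass, and Adam28 and Vtn had too few counts to be tested.

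Other genes share the IGFBP domain without being classical IGF carriers. Of 13, 9 were tested, and 3 rose and 3 fell in Valine against Control, where 20.8% and 21.1% of all genes did (median log2 fold change 0.28). In Val+PA against Control 4 rose and 2 fell, where 20.4% and 18.8% did. Ccn3 rose by 3.34 (SE 0.16), from 3.83 to 39.1 CPM, and Ccn1 went from 114 to 31.8 CPM, a log2 fold change of -1.84 (SE 0.13). Both encode matricellular proteins of the CCN family. Their log2 fold changes in Val+PA against Control were 2.92 (SE 0.15) and -1.72 (SE 0.13). In Val+PA against Valine none passed, and Ccn5 had the smallest p, its log2 fold change being 0.71 (SE 0.17, edgeR adjusted p = 0.203). It passed without Control 3 and Val+PA 2 (0.66, edgeR adjusted p = 0.0474). Igfbp1 had 7 counts in all, Igfbpl1 1, Esm1 1, and with Ccn6 these could not be tested.

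**Figure D5:**
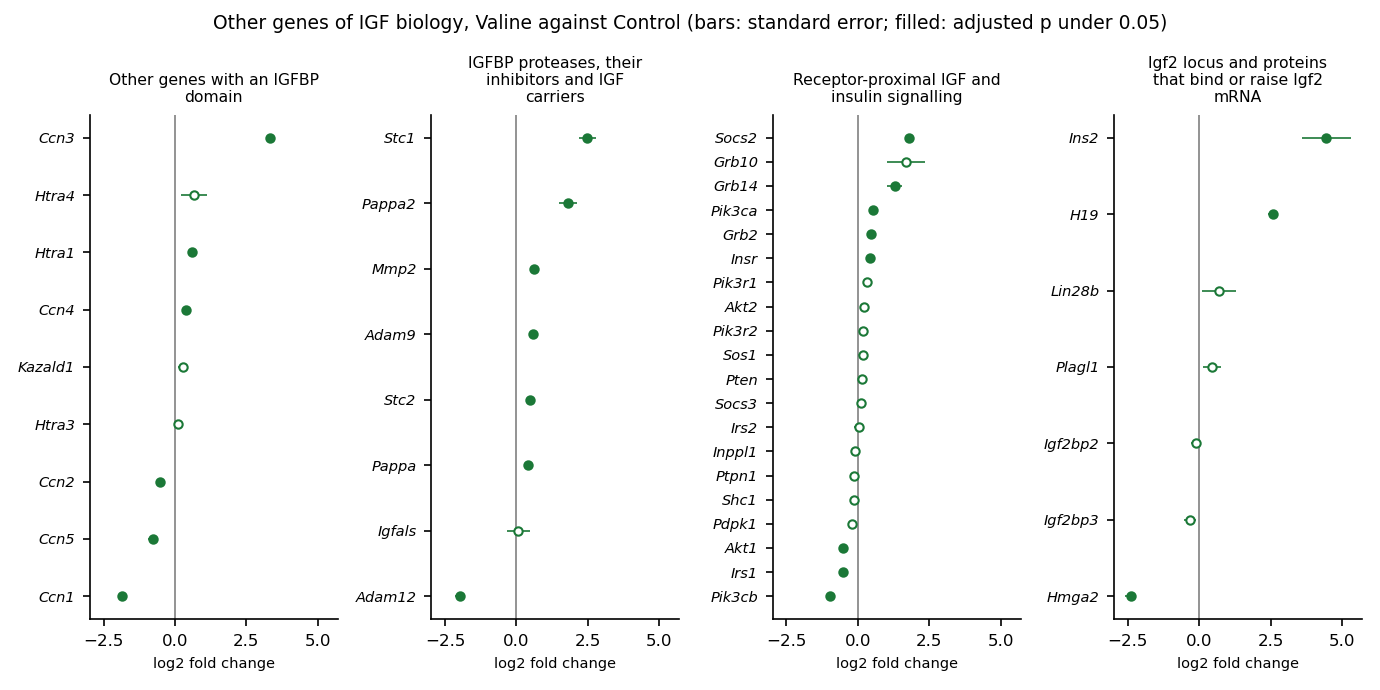
Log2 fold change in Valine against Control of the tested genes of 4 lists around the IGF system, with bars of 1 standard error and filled points where the edgeR adjusted p was under 0.05. Proteases and their inhibitors lie mostly to the right of 0 with Adam12 at -1.99 as the exception. Most of the receptor-proximal genes lie within 1 log2 unit of 0. Socs2 at 1.78, Grb10 at 1.70 (open) and Grb14 at 1.30 lie beyond it.

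Receptor-proximal genes encode the insulin receptor and the adaptors, kinases, phosphatases and inhibitors nearest the membrane. All 20 were tested, and 5 rose and 3 fell in Valine against Control (median log2 fold change 0.16). These counts are near the shares over all genes, 20.8% and 21.1%. Socs2, which encodes an inhibitor of growth hormone and cytokine receptor signalling, rose by 1.78 (SE 0.10), from 24.7 to 84.5 CPM. Pik3cb, a catalytic subunit of PI3K, went from 35.6 to 18.1 CPM, a log2 fold change of -0.98 (SE 0.11). In Val+PA against Control 7 rose and 2 fell, where 20.4% and 18.8% of all genes did, with Socs2 at 1.76 (SE 0.10) and Pik3cb at -0.94 (SE 0.11). None passed between Val+PA and Valine, where Socs3 had the smallest p (log2 fold change 0.28, SE 0.13, edgeR adjusted p = 0.374).

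Of 10 genes of the Igf2 locus or whose products bind or raise Igf2 mRNA, 7 were tested, and 2 rose, H19 and Ins2, and 1 fell in each comparison with Control. Over all genes 20.8% rose and 21.1% fell in Valine, and 20.4% and 18.8% in Val+PA. The gene that fell was Hmga2, a chromatin protein that acts on the Igf2 mRNA-binding protein gene Igf2bp2. It went from 159 CPM in Control to 30.1 CPM in Valine and 36.6 CPM in Val+PA, log2 fold changes of -2.40 (SE 0.19) and -2.12 (SE 0.19). Igf2bp2 itself measured 42.5 ± 10.1 CPM in Control (SD, n = 3) and 39.1 CPM in Valine, ranged from 34.4 to 48.2 CPM in Val+PA, and did not pass. H19 had a log2 fold change of 2.18 in Val+PA against Control (SE 0.18) and of -0.41 against Valine (SE 0.17, edgeR adjusted p = 0.361), and the latter passed without Control 3 and Val+PA 2 (-0.64, SE 0.07, edgeR adjusted p = 0.000496).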

How the data were processed

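RNA of 9 C2C12 libraries was made into strand-specific paired-end libraries, per the labels' protocols. Per the submitters' processing notes, the tools were HISAT2, featureCounts and DESeq2 and the build GRCm38, with versions, settings and annotation release not given in the sources used here. Deposited counts are raw reads per gene. The deposited normalized signal is relative to gene length and library and served only as an alternative. Symbols and exons came from GENCODE M21 (GRCm38) and matched 52093 IDs (97.0%). Columns coded P1 to P3 were matched to the labels' Val+PA codes VP1 to VP3.

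Genes were filtered by filterByExpr, scaled by TMM and fitted in edgeR 4.0.16 (R 4.3.3) with group means over all 9 libraries, leaving 6 residual degrees of freedom. Tests were two-sided with Benjamini-Hochberg adjustment over 18415 genes. Standard errors are the absolute log2 fold change over the square root of F. The fit was tested on simulated data. Alternatives included DESeq2 1.42.0, limma-voom (limma 3.58.1), other scalings and filters, a replicate block and left-out libraries. CPM per kilobase used summed exon length.

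Members and lists were chosen with earlier results of these data known. The text names all 10 members. It names from each list the called genes with the largest rise and fall and a mean of at least 1 CPM, or the gene with the smallest p. It names the 3 genes most like Igfbp5 and Igf1r. Igf1 in that search, Airn, Igf1os, Ins2, Igfals, Igf2bp2 and mt-Co1 fall outside this rule.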

Additional observations from a re-analysis of the deposited data

How the results depend on the processing

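The members called numbered 6 in Valine against Control and 4 to 7 when any 1 library was left out, and 7 in Val+PA against Control, with 7 to 8 when any 1 was left out. In Val+PA against Valine none was called, with 0 without any 1 library. DESeq2 called 2 members and 212 of 18415 genes there, and the fit with no filter 3 members and 763 of 33116 genes. Leaving out both Control 3 and Val+PA 2 gave 4 members and 604 of 18799 genes. Over all genes, a threshold of 0.01 gave 5092 calls in Valine against Control in place of 7718. Igf1r in Val+PA against Control ran from -0.022 (without Val+PA 2) to 0.18 (without Val+PA 1) and stood at -0.0079 without both libraries, each negative value within its SE. No other member changed sign under any alternative in any comparison. Igf1 in Valine against Control had a log2 fold change of 2.52 to 4.10, the lowest from limma on the normalized signal plus 1. By construction, adding 1 compresses fold changes where the signal is low, and the mean signal of Igf1 in Control was 0.446. Igfbp2 and Igfbp6 in Valine against Control also missed the threshold on the normalized signal plus 1 without a filter (adjusted p = 0.0692 and 0.0737), and Igfbp7 passed with no filter (0.0468). The causes of these changes were not tested. Library size alone gave 56.6% higher calls in Valine against Control, against 49.7%. With a replicate block 6, 0 and 7 members were called in the 3 comparisons. Deviations of same-numbered libraries correlated at -0.41 to 0.24, and 9 of 18 were closest to their own number. These values cannot settle whether the numbers pair the libraries, because Control 3 and Val+PA 2, with different numbers, stand apart from their groups. No pairing was assumed in the main fit. The floor given for Igf2 covers counting error only, while SDs and SEs also take in variation between libraries. Igfbp3 and Control Igf1, at 42 to 245 counts a library, are the thinnest of the tested members.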
